A study of Mus musculus with 10 samples.

Results

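The sine oculis homeobox (Six2, Six4, Six5), Eya and Dach genes described here are 9 mouse genes taken by their Ensembl identifiers from tables of 55414 gene identifiers, the others being Eya1, Eya2, Eya3, Eya4, Dach1 and Dach2. All 9 had enough counts to be tested, among 18005 tested genes. RNA was sequenced from trigeminal ganglia of C57Bl6 mouse embryos at E13.5, the cranial ganglia that carry touch, pain and temperature from the face. The knockout group was Prdm12-/- (5 libraries, replicates 16, 29, 42, 49 and 50) and the control group was Prdm12+/+ (5 libraries, replicates 22, 24, 32, 35 and 45). All 10 libraries also carry the label Sox10 Venus+, so the controls share that allele or reporter, and the series title describes the loss of Prdm12 as constitutive. Prdm12 encodes a zinc finger protein needed for nociceptor development. No cell sorting is named, so a lower value in these whole ganglia cannot tell fewer cells of a type from less RNA per cell.

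Sine oculis homeobox proteins are homeodomain transcription factors, and Eya proteins are their coactivators, which also carry a phosphatase domain. Dach proteins, relatives of the Ski corepressors, bind DNA and act with both in the network first worked out in the fly eye. In vertebrate embryos sine oculis and Eya genes mark the placodes, the thickened head ectoderm that gives rise to part of the trigeminal neurons, while the remaining neurons and the glia come from neural crest. Members of these families also act outside neurons, among them Six2 in head mesenchyme and kidney progenitors and other members in muscle precursors, the ear and the pituitary.

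The label of the groups was checked on Prdm12 itself, which averaged 18.2 ± 14.1 CPM over the Prdm12-/- libraries, none of which reached the wild-type range, and 182 ± 76.7 CPM over the controls (n = 5 in each group, ± SD throughout). CPM are counts scaled to a common library size and adjusted with TMM factors. Library totals were lowest in knockout 49 (3258008 counts) and knockout 29 (13603690) and reached 33556002 in knockout 16. All 12 neuronal markers, among them Tubb3, Prph and Nefm, were detected in every library. Some libraries stood apart. Wild-type 32 and 35 had the lowest summed levels of 12 mesenchyme markers (936 and 1234 CPM, against 4838 to 6563 CPM in the other wild-type and 3083 to 11442 CPM in the knockout libraries), with no marker at 0. They also had the highest summed levels of the neuronal markers (15336 and 16029 CPM, against 6052 to 15051 CPM elsewhere). In macrophage markers they were the lowest (48.9 and 58.0 CPM, against 150 to 348 CPM elsewhere). In glial markers they were not the lowest (2724 and 2947 CPM). Knockout 49 had 399.9 CPM of 9 pituitary markers, against 41.5 CPM in wild-type 45 and at most 18.7 CPM elsewhere. Knockout 16 had 198 CPM of 10 central nervous system markers, against at most 47.1 CPM in any other library. All 8 endothelial markers had a positive log2 fold change (median 1.14), 7 with an unadjusted edgeR p under 0.05 and 0 past the edgeR threshold. Of all tested genes, 46.3% were positive and 13.1% had such a p. All tested macrophage (9), erythroid (8), epithelial (8) and pituitary (4) markers were also positive, with 1 or 2 of each list under that p. Positive were 9 of 12 mesenchyme and 7 of 8 tested central nervous system markers, with 0 and 2 under that p. In the remaining lists, 4 of 10 glial, 4 of 9 cartilage and bone, 1 of 12 neuronal and 2 of 12 tested skeletal muscle markers were positive. The summed level of the endothelial markers was 409 to 1013 CPM in Prdm12-/- and 214 to 492 CPM in Prdm12+/+ libraries, with none at 0. Their part in the differences of Eya1 and Dach2 below was not tested. The cells behind these levels were not identified.

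Compared between genotypes, 0 of the 9 genes passed the edgeR quasi-likelihood test at an adjusted p of 0.05, a threshold passed by 0.467% of all tested genes (0.0944% higher and 0.372% lower). Eya1 and Dach2 stood highest against the wild type and were the 2 members whose knockout libraries lay all above the wild-type libraries. Over all genes, 4.21% were separated in either direction, 1.29% in this direction and 2.92% in the other. At an unadjusted p under 0.05, 3 members (Eya1, Dach1 and Dach2) were higher and none was lower, where 13.1% of all genes reached that level, 6.4% higher and 6.73% lower. A log2 fold change above 0 was found in 7 members and in 46.3% of all genes. The median log2 fold change was 0.41 over the members and -0.03 over all genes. DESeq2 called 2 members, Eya1 (adjusted p = 0.0363) and Dach2 (adjusted p = 0.00254), and 2.88% of its genes, while limma-voom called none of the members and 0.539% of genes.

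**Figure D1:**
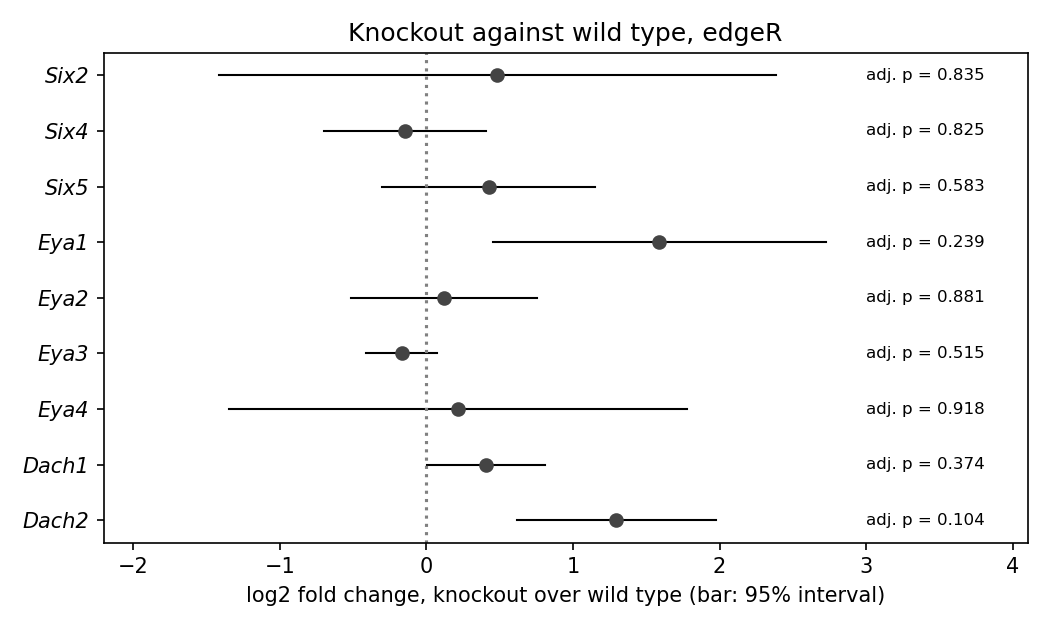
Log2 fold change of each gene, knockout over wild type (n = 5 libraries each), on the x axis, with the gene on the y axis. Points are edgeR estimates, bars 95% intervals and printed values adjusted p over all genes. The intervals of Eya1, Dach2 and, narrowly, Dach1 lie above 0, those of Six2 and Eya4 are the widest, and none of the 9 adjusted p is under 0.05.

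Among the Eya coactivators, Eya1 differed most. Its level was 40.4, 66.7, 47.1, 92.7 and 44.8 CPM in knockout 16, 29, 42, 49 and 50, and 36.2, 20.5, 5.54, 5.02 and 29.1 CPM in wild-type 22, 24, 32, 35 and 45. Every knockout library was above every wild-type library, the lowest knockout value lying close to the highest wild-type value. The group levels were 58.3 ± 21.7 and 19.3 ± 13.9 CPM, a 3.01-fold difference (log2 fold change 1.59, SE 0.52, edgeR adjusted p = 0.239). Permuting the genotypes over log2(CPM + 1) values, as 1 of 9 exact two-sided permutation tests, gave an unadjusted p = 0.00794. With 5 libraries in each group no smaller p is possible, and any gene whose groups do not overlap receives it, so it restates the separation. The exact permutation p of the 7 members whose groups overlapped lay between 0.0794 and 0.627. The difference therefore did not pass the test across all genes, although the groups were separated.

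The size of the Eya1 difference depended on which libraries were compared. The wild-type libraries 32 and 35, the lowest in mesenchyme markers and the highest in neuronal markers, were also the lowest in Eya1. Without both, the log2 fold change was 1.07 (SE 0.30, adjusted p = 0.421), with the remaining wild-type values at 20.5 to 36.2 CPM. With the mesenchyme score of each library as a covariate it was 1.42 (SE 0.38, adjusted p = 0.158), and no other marker list was used as a covariate. Without knockout 49, the library with pituitary markers, it was 1.37 (SE 0.54, adjusted p = 0.399). The direction was the same in all 18 alternative analyses, and 1 of them, the DESeq2 test, called the gene.

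Eya2, Eya3 and Eya4 overlapped between the genotypes. Eya3, the most even of the members, spanned 73.9 to 92.9 CPM in Prdm12-/- and 83.5 to 102 CPM in Prdm12+/+ libraries, a spread of 1.37-fold over all 10 libraries. Its group levels were 83.8 ± 8.44 and 94.1 ± 6.72 CPM (log2 fold change -0.17, 95% interval -0.41 to 0.07, edgeR adjusted p = 0.515). Eya2 averaged 39.3 ± 11.1 CPM without Prdm12 and 36.2 ± 15.4 CPM with it, having its highest values, 55.1, 53.2 and 50.7 CPM, in wild-type 24, knockout 29 and wild-type 22. Its log2 fold change was 0.12 (95% interval -0.51 to 0.76).

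Eya4 was the least abundant of the Eya genes per kilobase of exon. Its values were 12.4, 4.88, 10.4, 36.5 and 9.75 CPM in knockout 16, 29, 42, 49 and 50, and 26.4, 11.9, 1.73, 2.83 and 18.8 CPM in wild-type 22, 24, 32, 35 and 45. The highest value came from knockout 49, followed by wild-type 22, and the lowest 2 from wild-type 32 and 35. The log2 fold change was 0.21 (SE 0.71, edgeR adjusted p = 0.918), and it turned to -0.39 without knockout 49 and to -0.37 without wild-type 32 and 35. No direction can be given for this gene.

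Taken per kilobase of exon, the makeup of the Eya family differed in its Eya1 part. Eya1 made up 15.9, 21.1, 15.5, 27.7 and 18.6% of the summed Eya level in knockout 16, 29, 42, 49 and 50, and 10.9, 7.03, 2.81, 2.36 and 12.04% in wild-type 22, 24, 32, 35 and 45. The shares did not overlap, at 19.8 ± 4.99% and 7.03 ± 4.46%. They are computed from the same Eya1 values that were separated above, so this is not an independent result. Eya3 held the largest mean share in both groups, 40.4 ± 5.98% and 53.0 ± 11.6%, and Eya2 had 35.7 ± 8.55% and 36.4 ± 9.03%. Shares within a family are tied to each other, so a larger share of 1 gene lowers those of the rest.

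**Figure D2:**
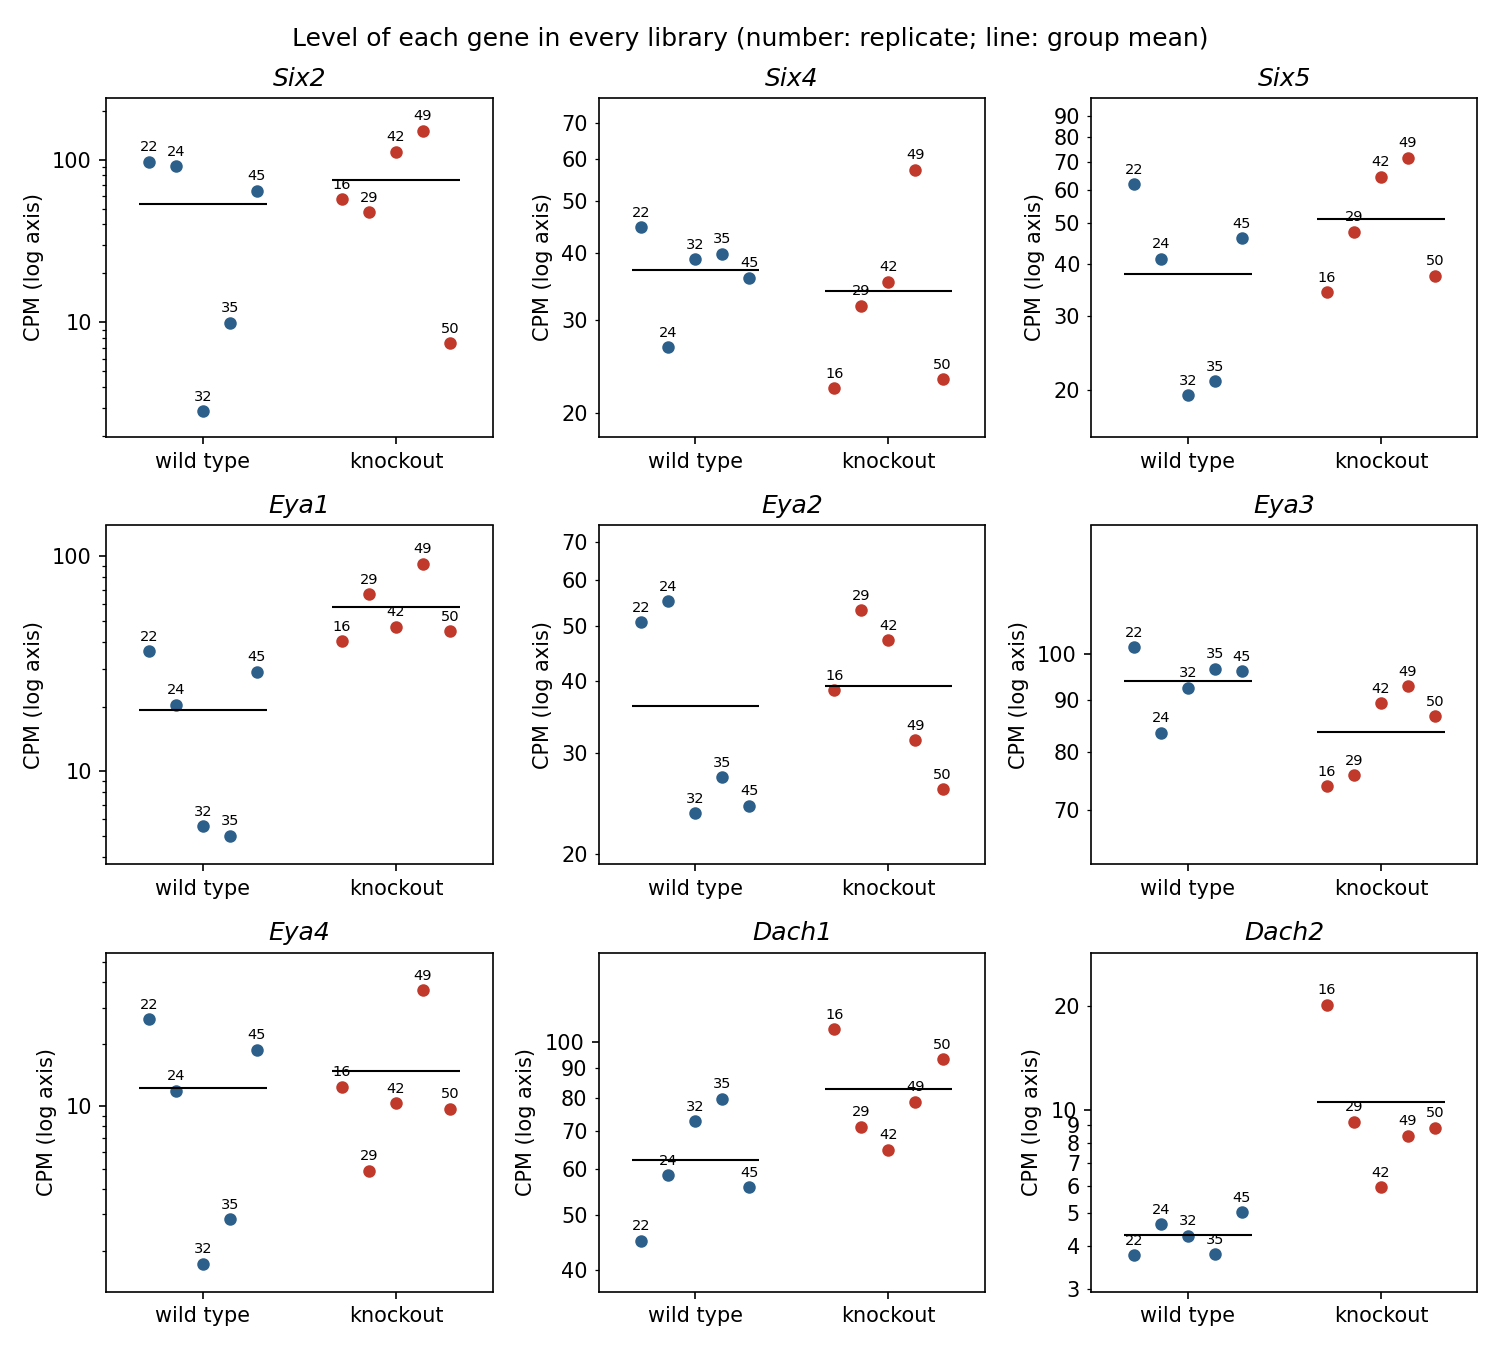
CPM on a log axis for each of the 9 genes, in the 5 wild-type and 5 knockout libraries. Points are libraries marked with their replicate number and lines are group means. Eya1 and Dach2 are the panels with no overlap. Six2, Eya1 and Eya4 show wild-type 32 and 35 far below the other wild-type libraries.

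Of the Dach genes, Dach2 gave the lowest p of all members. It was at 20.2, 9.21, 5.94, 8.40 and 8.84 CPM in knockout 16, 29, 42, 49 and 50, and at 3.77, 4.64, 4.30, 3.79 and 5.03 CPM in wild-type 22, 24, 32, 35 and 45. The wild-type values lay close together, and all knockout values were above them. The groups stood at 10.5 ± 5.55 and 4.31 ± 0.546 CPM, a 2.46-fold difference (log2 fold change 1.296, SE 0.31, edgeR adjusted p = 0.104).

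Dach2 was highest by far in knockout 16, the library with the highest level of central nervous system markers. Without it the log2 fold change was 0.91 (SE 0.22, adjusted p = 0.107) and the remaining knockout values, 5.94 to 9.21 CPM, were still above all wild-type values. The part of that tissue in the Dach2 values was not tested. Wild-type 32 and 35 were not set apart in Dach2, and without both the log2 fold change was 1.28 (adjusted p = 0.482). With the mesenchyme score as a covariate it was 1.34. The count behind the knockout 49 value is 29 reads, the fewest in any library, so that value is the least precise.

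Dach1, the more abundant paralog, was at 105, 71.2, 64.9, 78.8 and 93.3 CPM in knockout 16, 29, 42, 49 and 50, and at 45.04, 58.7, 72.7, 79.7 and 55.9 CPM in wild-type 22, 24, 32, 35 and 45. The groups overlapped through wild-type 32 and 35, which were the highest of their genotype, in the reverse of the Eya1 pattern. The difference was 1.33-fold (82.7 ± 16.5 against 62.4 ± 13.8 CPM, log2 fold change 0.41, SE 0.18, edgeR adjusted p = 0.374). Without wild-type 32 and 35 it was 0.68 on the log2 scale (SE 0.20, adjusted p = 0.447), and without knockout 16 it was 0.30. Dach2 made up 8.29 ± 2.50% of the summed Dach level per kilobase in Prdm12-/- and 5.05 ± 1.201% in Prdm12+/+ ganglia. The 2 ranges did not overlap, with a narrow gap from 6.26% in wild-type 45 to 6.36% in knockout 42. These shares use the Dach2 values that were separated above, so this is not an independent result.

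RefSeq promoter entries (build GRCm38.p6) were found for 7 of the members, 10 entries in all, and not for Eya1 and Eya2. The 250 bases before each start were searched on both strands for TATAAA, the core of the TATA box, and for TCAGGTTTC, the MEF3 site bound by sine oculis proteins. The motifs share no overlap in these windows. The sequences below are both starts given for Dach2, the member with the lowest p, and the 1 member entry that holds the MEF3 letters, a start of Six4. They run 5′ to 3′ on the gene's strand, and capitals mark motif matches.
Dach2, first start, chrX:113297260-113297509, plus strand: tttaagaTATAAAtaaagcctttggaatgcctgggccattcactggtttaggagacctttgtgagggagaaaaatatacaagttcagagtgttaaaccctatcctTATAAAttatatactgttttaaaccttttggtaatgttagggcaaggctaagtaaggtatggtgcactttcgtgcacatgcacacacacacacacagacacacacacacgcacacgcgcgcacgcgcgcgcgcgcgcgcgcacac
Dach2, second start, chrX:113298006-113298255, plus strand: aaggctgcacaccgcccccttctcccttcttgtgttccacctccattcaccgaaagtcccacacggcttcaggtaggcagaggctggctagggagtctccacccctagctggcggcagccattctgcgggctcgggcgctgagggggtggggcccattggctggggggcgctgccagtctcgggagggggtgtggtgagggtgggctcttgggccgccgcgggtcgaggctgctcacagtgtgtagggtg
Six4, chr12:73113246-73113495, minus strand: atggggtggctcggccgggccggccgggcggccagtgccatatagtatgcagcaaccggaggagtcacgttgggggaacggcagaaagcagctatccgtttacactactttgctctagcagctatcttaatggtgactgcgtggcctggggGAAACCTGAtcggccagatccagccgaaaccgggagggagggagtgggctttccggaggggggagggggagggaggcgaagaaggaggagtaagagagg

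The first Dach2 window held TATAAA 2 times, its matches beginning 243 and 145 bases before the start, and the second held neither motif. TATAAA was found in 12.4% of 32851 RefSeq promoters, and in 1 of the 10 member entries. The Six4 match reads as the reverse complement of TCAGGTTTC and begins 99 bases before the start. TCAGGTTTC was found in 0.387% of all promoters. The windows held 14 and 13 CpG dinucleotides for Dach2 and 15 for this Six4 start, against a median of 6 over all promoters, and 13 to 35 in the 10 member entries. Nearly all CpGs of the first Dach2 window lie in the repeat of short CA and CG units at its end. The motif matches describe letters in a window, and no binding was measured.

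The 3 sine oculis genes differed in how even they were. Six4 was at 22.3, 31.9, 35.3, 57.3 and 23.2 CPM in knockout 16, 29, 42, 49 and 50, and at 44.7, 26.6, 39.0, 39.9 and 35.9 CPM in wild-type 22, 24, 32, 35 and 45. The groups overlapped, with both the lowest and the highest value in the knockout. The log2 fold change was -0.15 (95% interval -0.70 to 0.41, edgeR adjusted p = 0.825). The highest value was in knockout 49, and without it the log2 fold change was -0.40 (SE 0.20, adjusted p = 0.49). Without knockout 29 and 49 it was -0.47 (SE 0.21, adjusted p = 0.479).

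Six5, the member next to Dmpk in the genome, was at 51.1 ± 16.4 CPM in Prdm12-/- libraries (34.2 to 71.5 CPM) and 37.9 ± 17.8 CPM in the wild type (19.5 to 61.8 CPM). Wild-type 32 and 35, at 19.5 and 21.1 CPM, were its lowest libraries. The log2 fold change was 0.42 (95% interval -0.30 to 1.15, edgeR adjusted p = 0.583), and 0.09 without these 2 libraries.

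Six2 varied more between libraries than any other member. It was at 57.0, 47.4, 112, 151 and 7.48 CPM in knockout 16, 29, 42, 49 and 50, and at 97.2, 91.1, 2.84, 9.97 and 64.3 CPM in wild-type 22, 24, 32, 35 and 45. The lowest and the highest library differed 53.1-fold, and low libraries were found in both genotypes. The SD of log2 CPM over the 10 libraries, 1.93, was larger than that of 99.3% of all tested genes. The log2 fold change was 0.48 (95% interval -1.42 to 2.38, edgeR adjusted p = 0.835). It was 0.077 without knockout 49 and -0.14 without wild-type 32 and 35.

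The tissue markers of the low Six2 libraries were not all alike. Wild-type 32 and 35 were the lowest in mesenchyme markers and, with 249 and 273 CPM, in 9 cartilage and bone markers. Knockout 50 was high in mesenchyme markers (6689 CPM) but the lowest knockout library in cartilage and bone markers (373 CPM, against 628 to 1422 CPM). Knockout 29 had the lowest mesenchyme level of the knockout (3083 CPM) with Six2 at 47.4 CPM. No marker of these lists was at 0 in any library, and their part in the Six2 values was not tested.

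**Figure D3:**
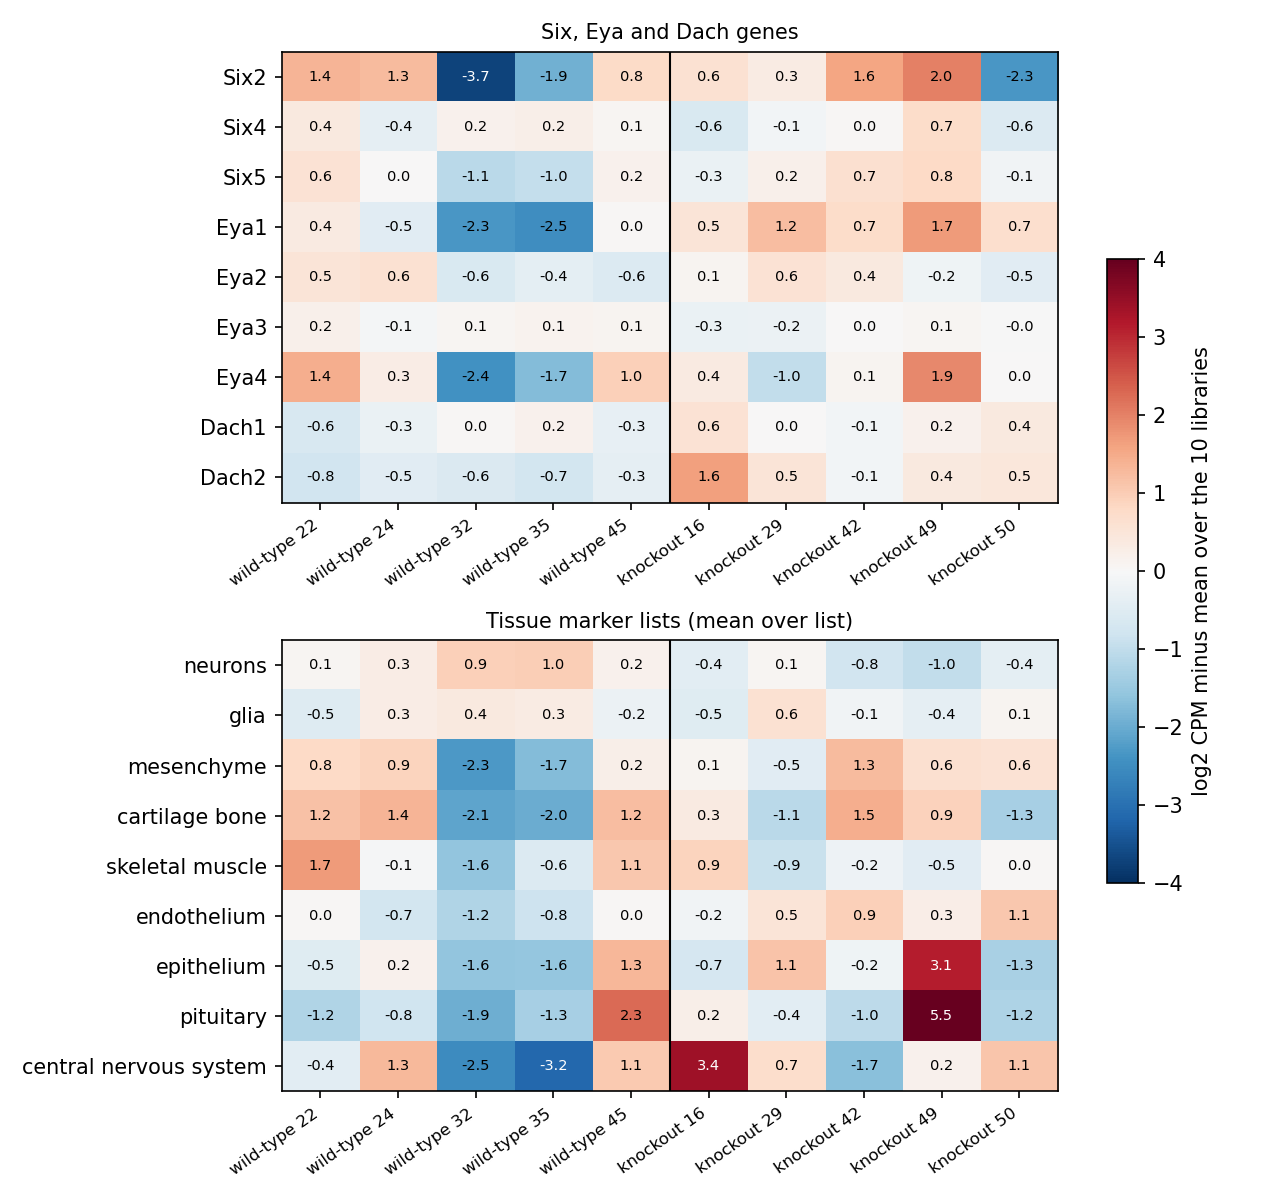
Log2 CPM minus the mean over the 10 libraries (colour and printed value), for the 9 genes above and for 9 tissue marker lists below, with wild-type libraries left and knockout libraries right of the line. Six2, Eya1 and Eya4 share low values with the mesenchyme list in wild-type 32 and 35, Eya3 stays near 0 throughout, and the pituitary list stands out in knockout 49 and the central nervous system list in knockout 16.

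Levels were compared between genes only per kilobase of exon, using exon lengths from GENCODE M21. In the wild type the order of mean CPM per kilobase was Six2 (25.0 ± 20.97), Eya3 (16.7 ± 1.19), Six5 (12.6 ± 5.93), Eya2 (12.2 ± 5.20), Dach1 (8.53 ± 1.89), Six4 (3.43 ± 0.620), Eya1 (2.47 ± 1.78), Eya4 (1.31 ± 1.12) and Dach2 (0.436 ± 0.0554). Every Dach1 value lay above every Six4 value, and the ranges over libraries of every other pair of neighbours in this order overlapped. Compared within each wild-type library, Eya1 was nevertheless always above Eya4. In the knockout Six2 (35.4 ± 26.7) was again highest and Dach2 (1.07 ± 0.563) lowest, and Eya1 (7.47 ± 2.78) came before Six4 (3.13 ± 1.31). The ranges of all neighbours overlapped there, although within each knockout library Eya1 was above Six4 and Six4 above Eya4.

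**Figure D4:**
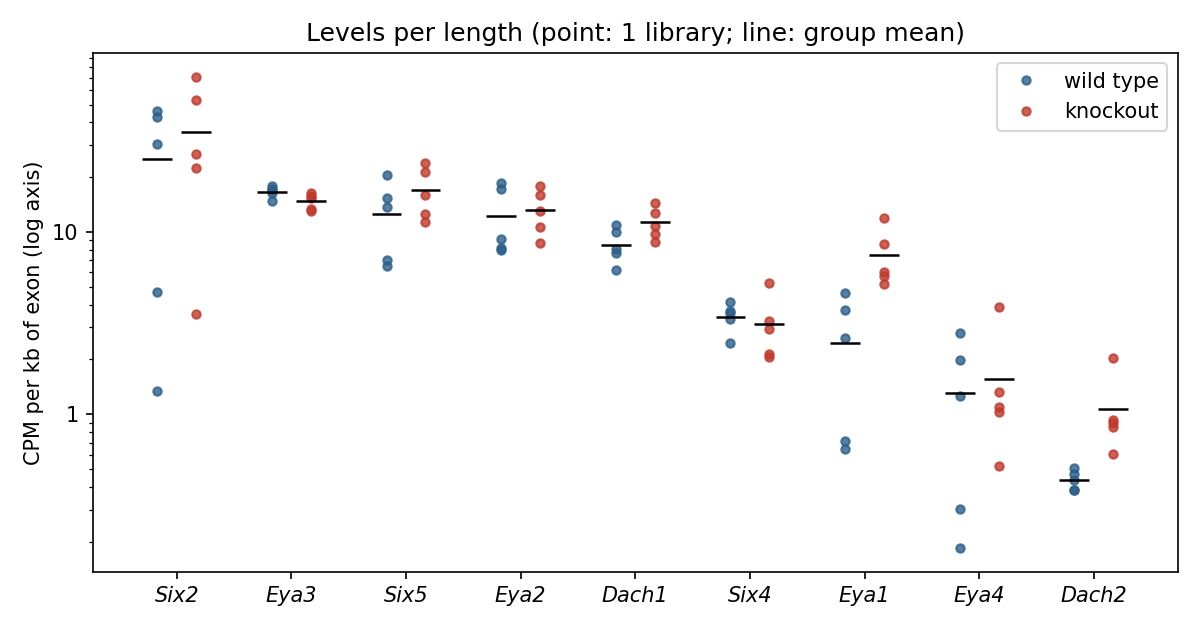
CPM per kilobase of exon on a log axis, by gene in the wild-type order, with 1 point per library (5 per group) and lines at group means. Six2 has the highest mean and the widest spread (1.34 to 71.2), and the mean of Eya1 lies above that of Six4 in the knockout and below it in the wild type.

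Profiles over the 10 libraries were compared by the root-mean-square difference of log2 CPM, after centring each gene on its mean. Small differences are easier to reach for even genes. Among the members, the closest pair was Six4 and Eya3 (0.319), followed by Eya3 and Dach1 (0.439) and by Dach1 and Dach2 (0.521). Six2 was nearest to Eya4 (1.09), and Eya1 to Six5 (0.853).

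Of 15518 other genes with a mean of at least 1 CPM, the nearest to Dach2 were Siah3 (0.229), Pitpnm1 (0.241) and Olfm2 (0.288). Olfm2 averaged 48.3 CPM in Prdm12-/- and 21.99 CPM in Prdm12+/+ ganglia (edgeR adjusted p = 0.118). Nearest to Eya1 were Tfap2c (0.429), Itga11, a collagen-binding integrin subunit (0.499), and Aebp1 (0.519). Itga11 was at 56.8 and 23.4 CPM (edgeR adjusted p = 0.341). Nearest to Six2 were Wfdc2 (0.366), Gm29418 (0.444) and AC166821.1 (0.553), to Six5 Evc2 (0.143), P3h3 (0.144) and Pgghg (0.148), and to Eya4 Lrp8os2 (0.318), Galnt5 (0.531) and Chrdl1 (0.533). The other 4 members varied too little over the libraries for this comparison.

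The genes around the network were read from lists. Of 18 cofactors of sine oculis and Dach proteins, 0 were called, 8 had a positive log2 fold change, and the median was -0.02. Abundant members were the Groucho family gene Tle5 (entered as Aes in the symbol table), with 333 ± 62.0 CPM in Prdm12-/- against 339.6 ± 58.8 CPM in Prdm12+/+ ganglia, and the nuclear corepressor gene Ncor1 (251 ± 10.1 and 258 ± 22.3 CPM). At an unadjusted p under 0.05 there were 3 of these genes, 2 higher and 1 lower, where the share over all genes was 13.1%.

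Of 27 regulator genes that act early in placodes, mostly transcription factors, 23 were tested, and 1 rose. Among all tested genes, 0.0944% were called higher. Foxi1, Foxi2, Foxi3 and Gbx2 had too few counts, and Foxi3 had none in any library. The median log2 fold change of those tested was 0.62, and 6 had an unadjusted p under 0.05, 5 of them higher and 1 lower, beside 13.1% of all genes. The gene that rose was Gata3, a zinc finger factor of the ear placode and of sympathetic neurons, at 4.89, 12.04, 5.73, 5.79 and 10.7 CPM in knockout 16, 29, 42, 49 and 50 and 1.25 to 2.69 CPM in control libraries. All its knockout values were above its wild-type values, a separation found in 1.29% of all tested genes. The log2 fold change was 2.07 (SE 0.33, edgeR adjusted p = 0.0226). The call was made in 11 of 18 alternatives and was lost without knockout 50 (0.0812), wild-type 22 (0.0526), 32 (0.069), 35 (0.0792) or 45 (0.0607), without wild-type 32 and 35 together (0.204) and without knockout 29 and 49 together (0.0801), all adjusted p. Abundant members that did not pass were Sox2 (57.3 ± 42.4 and 34.2 ± 11.2 CPM), Tfap2a (27.7 ± 19.6 and 18.1 ± 3.38 CPM) and Msx1 (26.5 ± 30.7 and 9.38 ± 10.3 CPM).

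Pax3, the factor of the ophthalmic trigeminal placode and of neural crest, was singled out after its values were seen. It was at 38.6, 37.5, 10.6, 12.2 and 18.0 CPM in knockout 16, 29, 42, 49 and 50 and at 8.16 to 10.1 CPM in the wild type. The groups did not overlap, with knockout 16 and 29 highest, where 1.29% of all tested genes were separated in this direction. The log2 fold change was 1.37 (SE 0.35, edgeR adjusted p = 0.136). Over the 18 alternatives it was 1.11 to 1.56, and only DESeq2 called the gene (adjusted p = 0.00732). The edgeR adjusted p was 0.185 without knockout 16, 0.188 without knockout 29 and 0.54 without wild-type 32 and 35. Knockout 29 had the highest level of 10 glial markers (5408 CPM, against 1618 to 2947 CPM elsewhere). Knockout 16 had the highest level of central nervous system markers, and the part of these tissues in the Pax3 values was not tested.

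Of 13 genes of ganglion neurogenesis 0 were called, 9 had a negative log2 fold change and the median was -0.39. At an unadjusted p under 0.05 there were 6, 1 higher and 5 lower, beside 13.1% of all genes. Of the 12 neuronal markers, 11 also had a negative log2 fold change, with summed levels of 6052 to 15051 CPM in Prdm12-/- and 8615 to 16029 CPM in Prdm12+/+ libraries, and their part in these values was not tested. The most abundant neurogenesis genes were Isl1 (364 ± 100.03 CPM, against 630 ± 233 CPM in the controls), Ebf1 (241 ± 59.0 and 405 ± 91.7 CPM) and Ebf3 (265 ± 124 and 315 ± 25.6 CPM). Wild-type 32 and 35 were the highest in Isl1 (885 and 879 CPM, against 406 to 501 CPM in the other controls). They were also the highest in Ebf1 (509 and 501 CPM, against 319 to 351 CPM). Over the 18 alternatives the log2 fold change was -0.93 to -0.29 for Isl1 and -0.83 to -0.44 for Ebf1. Ebf1, a helix-loop-helix factor of differentiating neurons, had no Prdm12-/- value as high as its lowest control value (log2 fold change -0.75, SE 0.21, edgeR adjusted p = 0.166). The gap was narrow, from 315 CPM in knockout 29 to 319 CPM in wild-type 45. Among all tested genes, 2.92% were separated in this direction.

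Of 11 genes described as targets of sine oculis proteins, 10 were tested, 0 were called and the median log2 fold change was 0.09. Fgf8 had too few counts. At an unadjusted p under 0.05 there were 2, both higher, beside 13.1% of all genes. Abundant members were the cotransporter Slc12a2 (155 ± 49.5 and 159.8 ± 25.2 CPM) and the cyclin Ccnd1 (99.0 ± 18.2 and 75.6 ± 48.8 CPM). Gdnf, a growth factor gene that depends on Eya1 in the kidney, was singled out after its values were seen: its range was 4.02 to 7.55 CPM in Prdm12-/- and 2.24 to 2.82 CPM in Prdm12+/+ libraries. Its groups did not overlap (log2 fold change 1.17, SE 0.23, edgeR adjusted p = 0.0546), and the call was made in 2 of 18 alternatives. Such a separation, with the knockout higher, was found in 1.29% of all tested genes.

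**Figure D5:**
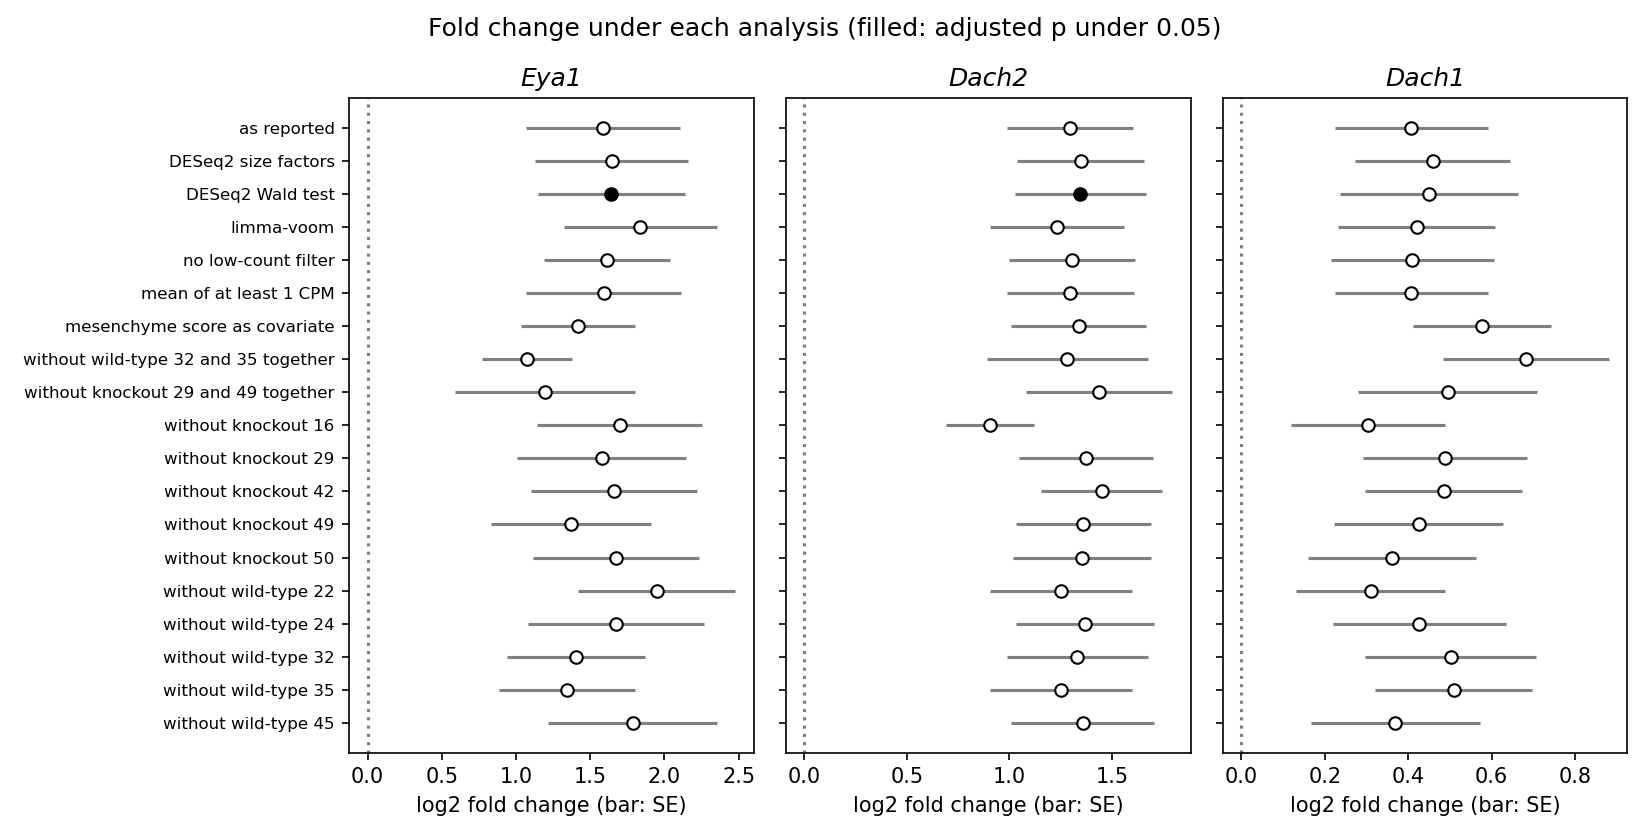
Log2 fold change with its SE (x axis) of Eya1, Dach2 and Dach1 under the reported analysis and 18 alternatives (y axis), filled where the adjusted p is under 0.05. All values lie above 0, and the filled points are those of the DESeq2 test for Eya1 and Dach2. The lowest values are 1.07 for Eya1 without wild-type 32 and 35 and 0.91 for Dach2 without knockout 16.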

How the data were processed

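Each library has 1 deposited file of raw, unnormalized counts over the same 55414 Ensembl identifiers. Per the submitters' processing notes, the tools were featureCounts 1.5.0-p1, STAR 2.7.10a and bcl2fastq 2.20.0.422, and the notes name the builds GRCm39 and mm10 without their roles. The annotation, the strand setting and the handling of multi-mapped reads were not given in the sources used here. Symbols came from a table that matched 52081 identifiers. No exon of the 9 genes overlaps an exon of another gene in GENCODE M21. Genes were kept with filterByExpr (minimum count 10), scaled with TMM and compared with edgeR's quasi-likelihood test (R 4.3.3, edgeR 4.0.16), with Benjamini-Hochberg adjustment over the 18005 genes kept and a threshold of 0.05. DESeq2 1.42.0 and limma 3.58.1 served as alternatives, and the scripts were tested on simulated data. Samples were grouped by the genotype label. The labels do not say that libraries came from separate embryos, so p-values measure the spread between libraries, which may be technical, and each title prefix occurs in 1 genotype only, so handling and genotype cannot be told apart. All 20 within-group pairs of libraries differed by more than counting noise (chi-square of at least 9.88 per gene). That lowest value belongs to wild-type 32 with 35, which were far more alike than the other wild-type pairs (27.9 to 247). A floor of 3 counts equals 0.0889 to 0.869 CPM. The mesenchyme score is the mean log2 CPM of its 12 markers (prior count 2).

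The 9 genes, the gene lists and the alternatives were chosen with earlier results of these data known, and p-values adjusted over the members alone are not given. Named genes are Prdm12, the members, the genes of each list past the threshold, its 3 most abundant tested genes, and the 3 genes nearest to each member with an SD of log2 CPM of at least 0.5. Pou4f1, Isl1, Pax2 and Myog stand in 2 lists each. Some genes that this rule or the lists include are not reported here.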

Additional observations from a re-analysis of the deposited data

Results flagged for a closer look

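Among the 18 groups of 5 values (9 genes in 2 genotypes), 2 held a library whose gap to the nearest other value was large against the range of its group. By chance about 1 in 20 groups would. Eya4 was at 36.5 CPM in knockout 49, against 4.88 to 12.4 CPM in the other knockout libraries. Dach2 was at 20.2 CPM in knockout 16, against 5.94 to 9.21 CPM in the other knockout libraries. Knockout 49 also had the highest pituitary marker level and knockout 16 the highest central nervous system marker level, and the part of these tissues in either value was not tested.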

How the results depend on the processing

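Of the 9 genes, Six4, Six5, Eya1, Eya3, Dach1 and Dach2 kept their direction in all 18 alternatives, Six2 and Eya2 in 17 and Eya4 in 12. The number of members called was 0, 2 with the DESeq2 Wald test and 0 in every other alternative. DESeq2 gave log2 fold changes of 1.64 for Eya1 and 1.35 for Dach2. Without wild-type 32 and 35 the log2 fold change turned to -0.14 for Six2, -0.092 for Eya2 and -0.37 for Eya4. Eya4 was also at -0.22 with the mesenchyme covariate, -0.18 without knockout 29 and 49, and -0.39, -0.02 and -0.04 without knockout 49, wild-type 32 and wild-type 35 singly, where leaving out 1 library gave -0.39 to 0.70 in all. Over all tested genes, 17 were higher and 67 lower. These counts were 350 and 245 with DESeq2 and 55 and 102 without a low-count filter. They were 0 and 19 without wild-type 32 and 35, and 2 to 35 and 27 to 88 when 1 library was left out. The number higher was 36 with the covariate and 6 without knockout 29 and 49. Of the pathway genes, 1 was called, 7 with DESeq2, 2 with the covariate, 0 without either pair of libraries, and 0 to 2 when 1 library was left out. The cause of these changes was not tested. No paired analysis was possible because no replicate number occurs in both groups. Knockout 49, with 3258008 counts, limits the precision for Dach2.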
